A study of Mus musculus and Homo sapiens with 14 samples.

Results

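Mouse zinc finger genes of the Zfp series, named Zfp and a number, were followed in 10 mouse RNA-seq libraries. A gene was taken as a member when it was protein-coding and its mean level over those libraries was at least 3 TPM. TPM is a level per transcript length, scaled to the same total in every library. Zfp36 and Zfp536 were left out by the rule. Of 35288 mouse gene identifiers in the tables, 363 carried such a symbol and 171 of these reached the mean level. The members were thus chosen by their mean TPM, and the levels below are a description, and the members' share of high or low genes is not a result.

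The libraries formed 5 mouse groups of 2. Oli-neu, a mouse line with the features of oligodendrocyte precursor cells, was grown alone, beside MB1 or beside D341. MB1, cells established from the Sonic hedgehog medulloblastomas that form at postnatal day 12 in Atoh1-cre:SmoM2 mice, was grown alone or beside Oli-neu. D341 is a human Group 3 medulloblastoma line, and its own libraries are not analysed here. In these mice a Cre under Atoh1 control, active in cerebellar granule neuron precursors, turns on an active form of Smoothened. All cells, those grown alone included, were kept in serum-free medium with B-27, N-2, 20 ng/mL of EGF and 20 ng/mL of basic fibroblast growth factor. Partner lines were separated by inserts of 30 mm whose membranes had pores of 0.4 µm, so each library came from 1 line. Each group has 2 libraries of a single line, which the submitters call biological replicates, and p values measure the spread between these libraries.

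Most proteins of the series carry arrays of C2H2 fingers, short folds in which a zinc ion is held by cysteines and histidines and which read DNA or RNA a few bases at a time. Many also carry a KRAB box, which recruits Trim28 and, through it, the methyltransferase Setdb1 and heterochromatin proteins, to silence retroelements and imprinted loci. Such genes lie in clusters made by repeated gene duplication, and near copies are common among them. Other members have no KRAB box and act in other ways, as activators at promoters, in RNA processing, in ribosome quality control or at the mitotic spindle.

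One member, Zfp143, binds a promoter element, known as the Zfp143 or Staf site, whose core of 11 bases was searched for on both strands of members' promoters. RefSeq promoters of 300 bases, 250 before a start and 50 after it, were matched by symbol for 133 of the 171 members, giving 167 windows on GRCm38.p6. The core was found in 4 of the 167 windows (2.4%), against 0.286% of all 32851 windows and 0.432% of windows of other coding genes. These members were Zfp1, Zfp180, Zfp692 and Zfp93. The last 3 windows are printed here because they show which members hold the element of another member, each as 60 bases of the gene's strand (plus in all 3) with the core in capitals, read in the forward direction in Zfp692 and in reverse complement in the others.
Zfp180: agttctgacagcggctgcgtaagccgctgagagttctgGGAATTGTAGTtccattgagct
Zfp692: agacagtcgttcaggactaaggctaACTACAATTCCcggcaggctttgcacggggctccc
Zfp93: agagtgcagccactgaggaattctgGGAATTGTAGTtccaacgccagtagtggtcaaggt
The windows lie at chr7:24081837-24081896, chr11:58306996-58307055 and chr7:24270322-24270381, in the order printed, and the core stands 17, 43 and 66 bases before the start. Zfp180 and Zfp93 belong to 1 run of neighbouring members on chromosome 7 that spans 219 kb, so their windows are not independent examples. A match is a description of the letters and not a sign of binding. The ETS core CCGGAAG, searched on both strands, was in 20.4% of the members' windows against 8.86% of all windows and 11.8% of those of other coding genes. TATAAA was in 7.78% against 13.6% and 12.2%. The median ratio of observed to expected CpG was 0.725 in members' windows and 0.588 in those of other coding genes. The other coding genes were taken at any level, while the members were chosen at a mean of at least 3 TPM. None of these promoter shares and ratios is thus matched for level. A gene entered once for each of its starts, so 1 site could be counted more than once.

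Zfp143 itself stood at 6.23 and 5.28 TPM in Oli-neu alone, 8.16 and 5.87 beside MB1, and 6.91 and 5.21 beside D341. In MB1 it stood at 8.21 and 7.63 TPM alone and at 6.72 and 7.83 beside Oli-neu, and its groups overlapped in every comparison. Among the 4 members with the core, Zfp692 was the highest, at 24.0 to 29.9 TPM in the 6 Oli-neu libraries and 13.999 to 17.8 in the 4 MB1 libraries. Zfp1 had 7.99 to 10.5 and 5.45 to 7.49 TPM, and Zfp180 had 3.99 to 5.30 and 3.503 to 5.99 TPM. Zfp93 ranged from 0.69 to 11.5 TPM within Oli-neu and was at 0.759 and 11.5 in the libraries of Oli-neu alone.

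Between 11596 and 12338 genes reached 1 TPM in a library, and 168 to 171 members did. Depth is unknown, since the tables hold no counts. The mitochondrial share was 1.93% to 4.53% for Oli-neu and 5.73% to 9.56% for MB1, and the pseudogene share 36.0% to 38.2% and 25.2% to 26.8%. Oli-neu had the defining oligodendrocyte gene Sox10 at 171 to 235 TPM. Of 8 granule lineage and Sonic hedgehog tumour markers, 4 were under 1 TPM in all 10 libraries. MB1 had Zic1 at 63.7 to 125 TPM, Zic2 at 22.6 to 30.3, Pax6 at 18.6 to 25.4 and Ptch1 at 14.2 to 18.4. Gli1 was at 0.082 to 0.178 TPM in MB1 and Gli2 at 0.147 to 0.481. The granule lineage's defining gene Atoh1 was at 0 in 3 of 4 MB1 libraries, and Barhl1 was at 0 in all 4. MB1 also had Olig1 at 455 to 833 TPM with Sox10 under 1 TPM. The astrocyte marker Slc1a3 was at 324 to 419 TPM in MB1 and 27.1 to 37.9 in Oli-neu. Another, S100b, went the other way, at 37.9 to 44.9 TPM in MB1 and 137 to 172 in Oli-neu. All 5 microglial markers were under 1 TPM in all 10 libraries.

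The members were mostly low. Their means ran from 3.06 to 103 TPM with a median of 7.21, while the median of all 10187 genes at 3 TPM or more was 15.5. Below 10 TPM lay 114 members, 27 reached 20 TPM and 7 reached 50 TPM, and the 10 highest held 27.0% of the members' summed mean. The members just inside the rule were Zfp961 (3.06 TPM), Zfp661 (3.09) and Zfp335 (3.10), and the genes just outside were Zfp81 (2.92), Zfp715 (2.88) and Zfp704 (2.84). The other 192 Zfp genes included 7 listed at 0 in every library.

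**Figure D1:**
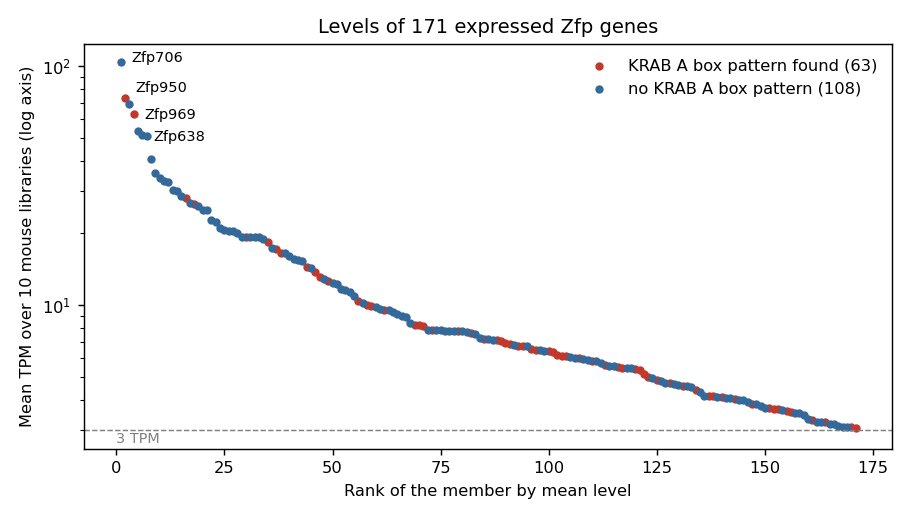
Mean TPM over the 10 mouse libraries (log axis) of each of the 171 members against its rank, coloured by whether the KRAB A box pattern was found (63 members) or not (108). A few members stand well above the rest, from Zfp706 at 103 TPM down to a tail at the 3 TPM line, and most of the highest are without the pattern.

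Zfp706, a single-finger protein of 76 residues reported to act in the exit of embryonic stem cells from self-renewal, was the highest at 103 TPM. The next 4 means were 73.4 TPM for Zfp950, a KRAB protein, 69.3 for Zfp207, 63.0 for Zfp969 and 53.3 for Zfp131, a BTB zinc finger. Zfp207 (BuGZ) binds Bub3 at kinetochores. Then came Zfp638 at 51.2 TPM, an RNA-associated protein that silences unintegrated retroviral DNA, Zfp740 at 50.8, Zfp414 at 40.7, Zfp219 at 35.6, known as a Sox9 cofactor, and Zfp787 at 34.0. Of these 10, only Zfp950 and Zfp969 held the KRAB pattern.

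Coding sequences of the GENCODE annotation were translated to count fingers. The median was 9 fingers (range 0 to 33, the highest in Zfp462) and 567 residues (76 to 2698). No finger of the pattern searched was found in 5 members, Zfp330, Zfp365, Zfp503, Zfp703 and Zfp993. The KRAB A box pattern was found in 63 members (36.8%) and in 111 of the 190 translated Zfp genes under the level rule (58.4%). The pattern is strict and misses known KRAB proteins, so no match does not show that a box is absent. The 63 had a median mean level of 6.45 TPM and 4 of them reached 20 TPM, against 7.90 TPM and 23 of the 108 without it. A SCAN domain pattern, a dimerisation fold, was found in 5 members, Zfp110, Zfp24, Zfp287, Zfp369 and Zfp397.

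Members gathered on chromosome 7, which held 38 of them (22.2%) against 7.33% of all genes at 3 TPM or more. Chromosomes 8 and 17 held 15 each. In GRCm38, 62 members lay in 20 runs of neighbours at most 200 kb apart. The longest run had 9 members at chr7:29783998-30169750, Zfp14, Zfp146, Zfp260, Zfp30, Zfp382, Zfp383, Zfp420, Zfp566 and Zfp940, with means from 3.11 to 32.9 TPM.

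Near copies make some values uncertain, since an estimate of transcript abundance can divide reads between them. Of the 171 members, 105 shared no stretch of 75 bases with another annotated gene, and 26 shared more than 5% of such windows. The share found in any other gene, with an example of such a gene in brackets, was highest in 6 members. It was 100% in Zfp969 (Zfp968), 94.6% in Zfp965 (Zfp973), 80.5% in Zfp433 (Gm32687), 78.7% in Zfp993 (Zfp991), 75.9% in Zfp991 (Znf41-ps) and 75.3% in Zfp960 (Zfp97). Zfp932 shared 26.4% with Gm15446, a gene at 115 to 283 TPM. Zfp865 shared 13.5% with 4632433K11Rik, at 0 to 0.262 TPM, and it overlaps Gm44973 and Ccdc106 on the same strand. Values of these members are given below as estimates that their copies can shift.

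**Figure D2:**
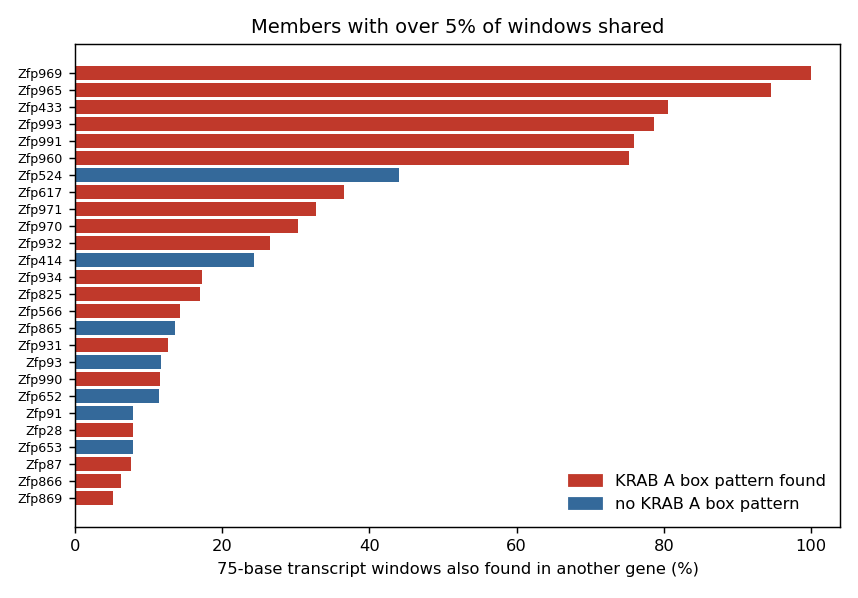
Share of 75-base transcript windows (%) that also occur in another annotated gene, for the 26 members above 5%, coloured by the KRAB A box pattern. The bars fall from 100% for Zfp969, and 6 members lie above 50%.

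The mean levels were set side by side for the 2 lines, which were deposited as separate tables, so no test was made between them. All 4 MB1 libraries lay above all 6 Oli-neu libraries for 43 members (25.1%, all genes at 3 TPM or more 39.5%) and below them for 22 (12.9%, all such genes 13.8%), and 106 overlapped. With a ratio of means of at least 2 as well, 16 members were higher in MB1 (9.36%) against 22.8% of all genes at 3 TPM or more, and 10 were higher in Oli-neu (5.85%) against 7.07%. With TPM rescaled over protein-coding genes alone the counts were 6 and 14, beside 17.2% and 9.23% of coding genes. The 6 that stayed past the ratio were Zfp148, Zfp362, Zfp365, Zfp386, Zfp672 and Zfp687.

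Zfp365, a centrosomal protein that binds Disc1, had the widest excess in MB1. Its Oli-neu levels were 2.68 to 6.66 TPM (median 4.14) and its MB1 levels 27.6 to 38.3, a ratio of means of 7.22. Zfp687 followed at 3.04 to 4.67 against 9.41 to 17.1 TPM, a ratio of 3.31. Zfp362 had 4.59 to 6.44 against 14.7 to 17.2 TPM, Zfp386 2.36 to 4.39 against 7.47 to 13.8, and Zfp148 2.76 to 4.35 against 6.61 to 10.97. None of these ranges met. Zfp672, Zfp40 and Zfp629 completed the 8 with the lowest ratio of Oli-neu to MB1, and Zfp40 and Zfp629 had overlapping ranges.

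In the other direction, Zfp991 had 13.8 to 29.5 TPM for Oli-neu and 0.213 to 0.689 for MB1, and Zfp993 had 24.5 to 30.3 and 0.296 to 1.33. Their ratios of means were 55.6 and 41.1. With MB1 means of 0.407 and 0.662 TPM, both met the mean level of 3 TPM only through Oli-neu. A ratio well above 1 was thus set by the rule for these 2 members. Zfp991 shares 75.9% and Zfp993 78.7% of their windows with other genes, and both lie on chromosome 4. They also share windows with each other, so reads can be divided between them. Zfp9 had 10.6 to 13.4 TPM in Oli-neu against 3.27 to 4.03 in MB1, Zfp940 8.86 to 20.2 against 3.51 to 6.11, Zfp239 3.55 to 6.82 against 1.504 to 3.47, and Zfp707 7.44 to 10.3 against 2.99 to 4.13. Those 6 had no overlap. Zfp990 and Zfp276 also had ratios among the 8 highest, with ranges that overlapped. Zfp239 had an MB1 mean of 2.16 TPM, under the level of the rule, and Zfp990 was too low in MB1 to be tested. Among the 16 members higher in MB1, Zfp13 and Zfp41 had Oli-neu means of 2.38 and 2.27 TPM. The rule thus favoured a difference between the lines for such members too.

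**Figure D3:**
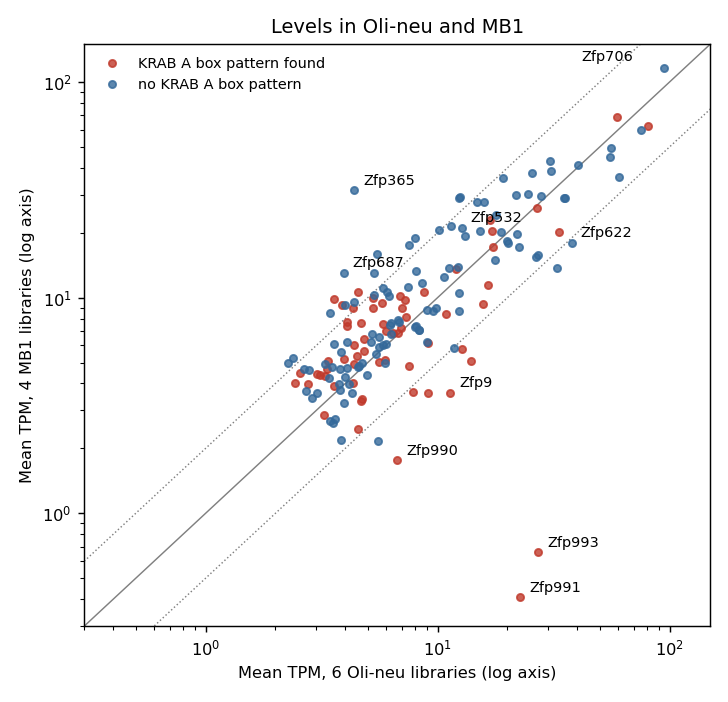
Mean TPM in 4 MB1 libraries against mean TPM in 6 Oli-neu libraries (both axes log) for 171 members, coloured by the KRAB A box pattern. The solid line marks equal levels and the dotted lines a ratio of 2. Zfp365 and Zfp687 lie above the upper dotted line, and Zfp991 and Zfp993 lie far below the lower one.

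Members with known roles outside gene silencing were among those that differed between the lines. Zfp622, a factor in maturation of the large ribosomal subunit, had 35.8 to 40.6 TPM for Oli-neu and 16.6 to 20.0 for MB1. Zfp106, an RNA-binding protein needed by motor neurons, had 6.53 to 8.98 and 14.04 to 22.9 TPM, and with TPM rescaled over coding genes its ratio of means was 1.996. Zfp410, which activates Chd4, had 12.8 to 17.2 and 22.4 to 32.4 TPM, while Chd4 averaged 50.2 and 58.2. Zfp598, the ligase that marks collided ribosomes, overlapped between the lines at 11.6 to 14.3 and 9.00 to 12.3 TPM.

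Zfp24, a SCAN protein required for myelination by oligodendrocytes, had 8.21 to 12.9 TPM for Oli-neu and 16.6 to 25.03 for MB1. Of the same list, Zfp488 at a mean of 1.49 TPM and Zfp521 at 2.58, were under the rule, and so were the imprint factor Zfp57 at 2.00 and the pluripotency marker Zfp42 at 0. The imprint factor Zfp445 was a member at 13.5 to 22.4 TPM for Oli-neu and 12.1 to 28.4 for MB1. Zfp809, which silences murine leukaemia virus, had 3.06 to 5.41 and 5.65 to 6.68 TPM.

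The next comparisons ask whether a partner line across the membrane altered the members. None of the 171 members passed the limma adjusted p of 0.05 in Oli-neu, nor any of the 168 tested in MB1. No gene at all passed in any of the 4 comparisons, so percent called was 0 throughout. The 3 Oli-neu comparisons share libraries, and their results are given side by side without a measure of overlap.

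In Oli-neu beside MB1, members differed little as a group. Their median log2 fold change was -0.02 against -0.06 for all 12280 genes tested, and it changed sign to 0.03 (all genes -0.01) after median-ratio scaling. At an unadjusted p under 0.05 lay 2 members on the higher side (1.17%, background 1.43%) and 6 on the lower side (3.51%, background 4.65%). Both libraries lay above both libraries of Oli-neu alone for 14 members (8.19%, background 10.1%) and below them for 31 (18.1%, background 24%). These shares were below the background in each case, and a lower mean was measured for 97 members (56.7%, all genes 62.6%). With a library left out the median lay between -0.08 and 0.03, the latter without Oli-neu with MB1 replicate 2, and 3 to 8 members were on the lower side at that p (1.75% to 4.68%, all genes 2.46% to 4.91%).

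Zfp365 had the smallest p of the members here. It was at 4.09 and 4.19 TPM alone and 6.66 and 5.84 beside MB1, so the groups did not overlap and the co-culture was the higher. The log2 fold change was 0.49 (SE 0.11, limma adjusted p 0.715). Zfp991 was at 25.6 and 22.4 TPM alone and 16.7 and 13.8 beside MB1, with no overlap, at -0.63 (SE 0.14, limma adjusted p 0.715). Zfp397, a SCAN protein, was at 7.95 and 8.82 TPM alone and 5.98 and 5.93 beside MB1, also without overlap, at -0.43 (SE 0.10). Zfp949 was higher in both co-culture libraries, at 5.12 and 5.50 against 7.21 and 6.89 TPM. Zfp961, Zfp511, Zfp367 and Zfp28 completed the 8 smallest p, with log2 fold changes of -0.38, -0.32, -0.38 and -0.38. All 8 adjusted p values lay between 0.715 and 0.809.

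In Oli-neu beside D341, most members were lower, and so were most genes. A lower mean was measured for 143 of 171 members (83.6%) against 75.8% of all genes tested, and the medians were -0.18 and -0.16. At an unadjusted p under 0.05 lay 1 member on the higher side (0.585%, background 1.61%) and 27 on the lower side (15.8%, background 12.1%). With median-ratio scaling, which moves the median of all genes to -0.00, the members' median was -0.02 and the split became 4 higher (2.34%, all genes 4.85%) and 9 lower (5.26%, all genes 3.76%). With a library left out, 11 to 16 were on the lower side (6.43% to 9.36%, all genes 5.68% to 6.65%). Oligodendrocyte markers were also lower, 6 of 8 without overlap (all genes 44%), while 1 was higher without overlap (all genes 7.12%). Their summed level was 612 to 685 TPM alone and 543 to 568 beside D341, and their part in the members' values was not tested. Both libraries lay below both of Oli-neu alone for 73 members (42.7%, background 44%) and above for 6 (3.51%, background 7.12%).

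Zfp865 was the 1 higher member at that p. It was at 4.45 and 4.38 TPM alone, 4.44 and 4.42 beside MB1 and 9.39 and 8.87 beside D341. The 2 libraries beside D341 stood apart from the other 4, which lay between 4.38 and 4.45 TPM. The log2 fold change against Oli-neu alone was 0.90 (SE 0.09, limma adjusted p 0.225). Ccdc106, which overlaps it, was at 0.644 and 1.76 TPM alone and 2.48 and 0.799 beside D341, and the part of shared sequence in the Zfp865 value was not tested. In MB1, Zfp865 was at 5.48 and 12.3 TPM alone and 3.25 and 3.35 beside Oli-neu, at -1.11 (SE 0.36, limma adjusted p 0.299).

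Zfp397 was at 4.01 and 3.76 TPM beside D341, under both libraries of Oli-neu alone and both beside MB1. Its log2 fold change against Oli-neu alone was -0.94 (SE 0.10, limma adjusted p 0.225). Zfp507 was at 6.35 and 8.98 TPM alone and 2.71 and 2.58 beside D341, at -1.23 (SE 0.28, limma adjusted p 0.320). The 2 libraries beside D341 were again the lowest of the 6. Both Zfp507 libraries beside MB1 also lay below both of Oli-neu alone, so a lower level was not particular to D341. Zfp365 was at 2.68 and 2.75 TPM beside D341 against 4.09 and 4.19 alone, and Zfp426, a KRAB protein, at 3.26 and 3.15 against 4.72 and 4.81. Zfp358 (-0.46), Zfp40 (-0.82) and Zfp664 (-0.45) had no overlap either, all at a limma adjusted p of 0.320.

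Between the 2 partners of Oli-neu, the members' median was -0.13 with D341 relative to MB1, against -0.09 for all genes, with 131 members lower (76.6%, all genes 68.5%), and -0.03 against 0.01 after median-ratio scaling. At an unadjusted p under 0.05 lay 18 members on the lower side (10.5%, background 4.34%) and 2 on the higher side (1.17%, background 0.79%), and median-ratio scaling made this 9 (5.26%, all genes 1.9%) and 4 (2.34%, all genes 2.03%). With a library left out, 8 to 20 were on the lower side (4.68% to 11.7%, all genes 2.47% to 8.49%), with 8 without Oli-neu with D341 replicate 1 and 10 without its replicate 2. The 8 oligodendrocyte markers summed to 605 to 705 TPM beside MB1 and 543 to 568 beside D341, 6 of them lower without overlap (all genes 28.8%). Both libraries beside D341 lay below both beside MB1 for 54 members (31.6%, background 28.8%) and above for 4 (2.34%, background 6.6%). Zfp365 was the clearest of those lower beside D341, at 6.66 and 5.84 against 2.68 and 2.75 TPM, a log2 fold change of -0.96 (SE 0.11, limma adjusted p 0.349). The 2 members on the higher side were Zfp865 at 0.90 (SE 0.09, limma adjusted p 0.349) and Zfp991 at 0.88 (SE 0.14, limma adjusted p 0.718), both with shared sequence. Among the 145 members with at most 5% of windows shared, none was on the higher side at that p and 18 were on the lower. Zfp426, Zfp397, Zfp326, Zfp40 and Zfp408 were lower by 0.41 to 0.73, each without overlap. Zfp326 is a subunit of the DBIRD complex, which couples splicing to elongation.

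**Figure D4:**
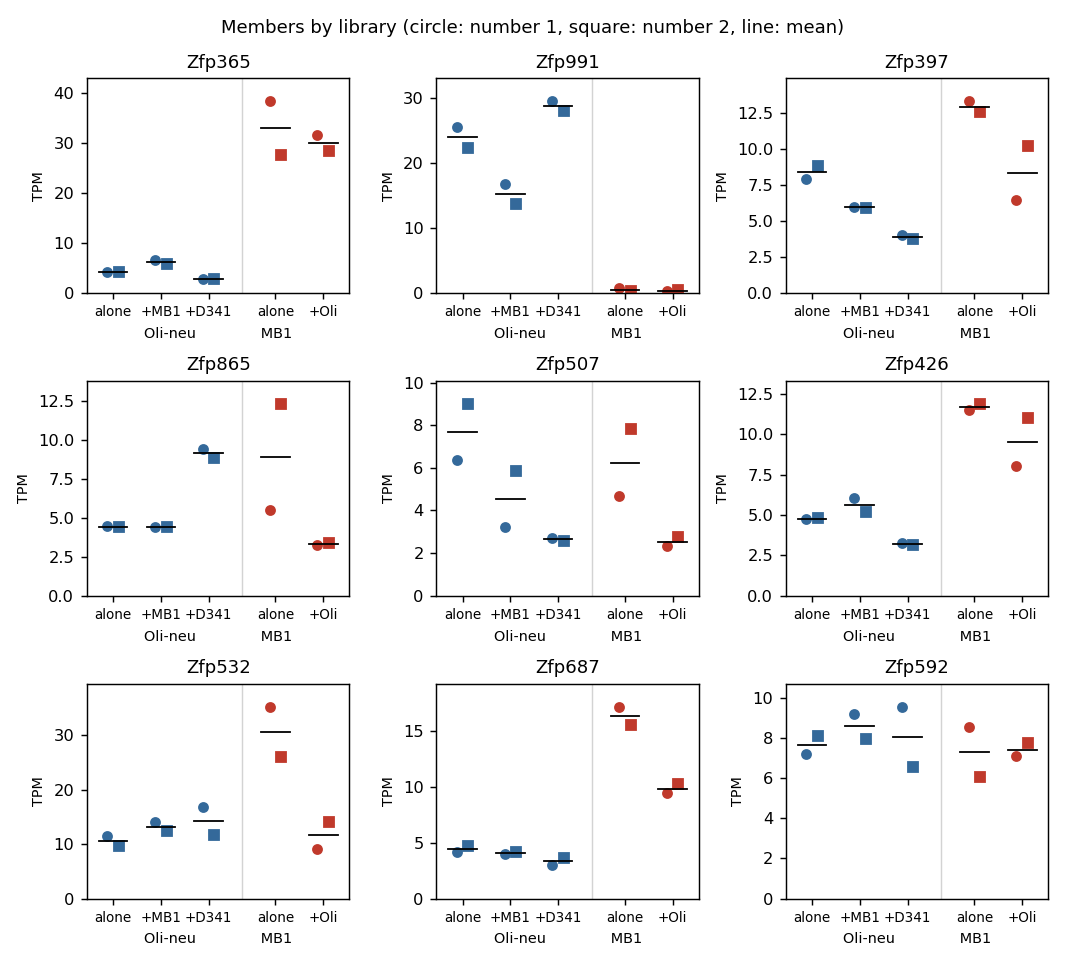
TPM in every mouse library (circle, number 1; square, number 2; line, group mean) of 9 members, for Oli-neu alone or beside MB1 or D341 (blue) and for MB1 alone or beside Oli-neu (red). Zfp865 stands apart beside D341, Zfp397 and Zfp507 are lowest there within Oli-neu, and Zfp532 and Zfp687 are lower in MB1 beside Oli-neu, while Zfp592 is not.

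In MB1 beside Oli-neu, members were lower on average than genes at large. The median log2 fold change was -0.29 over 168 members against -0.17 over 12407 genes, and -0.13 against -0.01 after median-ratio scaling. A lower mean was measured for 149 members (88.7%, all genes 70.9%). At an unadjusted p under 0.05 lay 28 on the lower side (16.7%, background 12.6%) and 1 on the higher side (0.595%, background 3.02%), and median-ratio scaling made this 8 (4.76%, all genes 4.82%) and 5 (2.98%, all genes 6.71%). Both co-culture libraries lay below both others for 88 members (52.4%, background 41.5%) and above for 7 (4.17%, background 10.9%). The summed TPM of all 171 members was 2442 and 2357 alone and 1904 and 2115 beside Oli-neu, without overlap.

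Markers of cell lineages differed between the same MB1 libraries. Of 8 oligodendrocyte markers 5 were lower beside Oli-neu without overlap (all genes 41.5%). The sum of the 8 was 940 to 1099 TPM alone and 635 to 764 beside Oli-neu. Most of it was Olig1, at 655 and 833 TPM alone and 575 and 455 beside Oli-neu. Olig2 was at 246 and 228 TPM alone and 155 and 151 beside Oli-neu. Of 5 astrocyte markers 3 were higher without overlap (all genes 10.9%), with sums of 379 to 413 and 473 to 479 TPM. Most of these sums was Slc1a3, at 363 and 324 TPM alone and 419 and 404 beside Oli-neu. Of 8 granule lineage and Sonic hedgehog tumour markers 2 were higher (all genes 10.9%) and 2 lower (all genes 41.5%) without overlap. Their sums were 132 to 149 and 167 to 193 TPM, with Barhl1 at 0 in both groups. Neuronal markers summed to 109 to 167 and 81.5 to 158 TPM and overlapped. The part of these lineage differences in the members' values was not tested.

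The difference of the members was not equal in all libraries. Between the libraries numbered 1 the members' median was -0.43 (all genes -0.19), and between those numbered 2 it was -0.14, the same as for all genes. The 28 members on the lower side became 2 (1.19%, all genes 4.45%) without MB1 with Oli-neu replicate 1 and 17 (10.1%, all genes 5.03%) without its replicate 2. They became 16 (9.52%, all genes 12.3%) without MB1 alone replicate 1 and 40 (23.8%, all genes 11.5%) without its replicate 2. The members' share was thus above that of all genes in some of these fits and below it in others. With each library left out in turn the median lay between -0.36 and -0.22, and that of all genes between -0.18 and -0.15. The KRAB members had a median of -0.26 over 60 tested and the others -0.32 over 108. Zfp genes under the level rule had -0.28 over 115 tested, the BTB family Zbtb -0.23 over 36, Zscan -0.38 over 8 and Zkscan -0.20 over 9. After median-ratio scaling the last 3 medians were -0.07, -0.24 and -0.045, and that of the Zfp genes under the level rule was -0.15, beside -0.01 for all genes. The Zbtb and Zkscan medians lay near that of all genes. A lower mean was still measured for 28 of 36 Zbtb and 9 of 9 Zkscan genes (all genes 70.9%). Below without overlap were 18 and 6 of them (all genes 41.5%), so a lower level was not particular to the members.

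**Figure D5:**
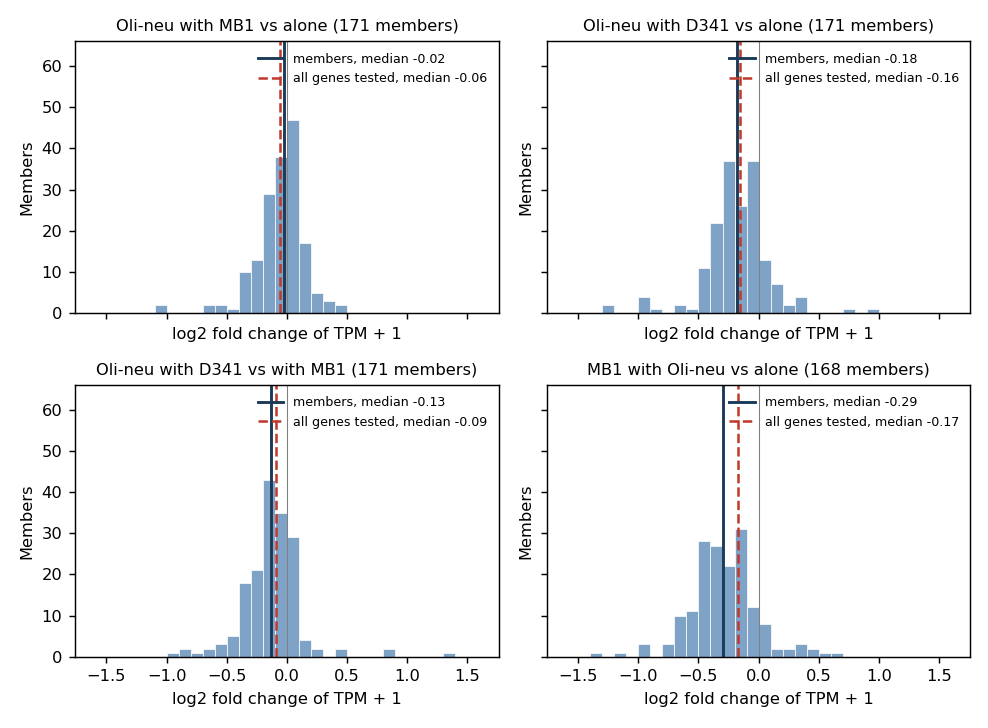
Histograms of members' log2 fold changes of TPM + 1 in the 4 comparisons, with the members' median (dark line) and that of all genes tested (dashed). The medians lie close together in the 3 Oli-neu comparisons, at -0.02 and -0.06, -0.18 and -0.16, and -0.13 and -0.09, and apart in MB1, at -0.29 and -0.17.

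The Z3 complex, in which Zfp532, Zfp592 and Zfp687 join the chromatin reader Zmynd8, held both members with the smallest p in MB1. Zfp532 was at 35.2 and 26.1 TPM alone and 9.14 and 14.1 beside Oli-neu, without overlap, a log2 fold change of -1.34 (SE 0.27, limma adjusted p 0.282). Zfp687 was at 17.1 and 15.5 TPM alone and 9.41 and 10.2 beside Oli-neu, also without overlap, at -0.68 (SE 0.15, limma adjusted p 0.282). Zfp592 was at 8.58 and 6.08 against 7.10 and 7.74 TPM and overlapped, at 0.03 (SE 0.21, limma adjusted p 0.946). In Oli-neu beside MB1, Zfp532 was instead at 13.99 and 12.5 against 11.5 and 9.66 TPM, above and without overlap, at 0.30 (SE 0.20, limma adjusted p 0.896).

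Zfp653 was at 5.48 and 6.27 TPM in MB1 alone and 3.35 and 3.503 beside Oli-neu, at -0.63 (SE 0.16). Zfp507 was at 4.67 and 7.82 against 2.35 and 2.74 TPM, at -1.0 (SE 0.26), without overlap. Zfp433 (-0.93), Zfp932 (-0.69), a repressor of endogenous retroviruses, and Zfp866 (-0.58) were lower without overlap, and all 3 share windows with another gene. Zfp467, known for promoting adipogenesis, was the 1 member higher at that p, at 16.0 and 16.1 TPM alone and 26.8 and 22.4 beside Oli-neu, with no overlap and a log2 fold change of 0.58 (SE 0.16, limma adjusted p 0.285). The adjusted p values of these 8 members lay between 0.282 and 0.285.

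By role, the members of the imprint and retroelement list were lower in MB1 beside Oli-neu in 4 of 4 tested, with a median of -0.60, and all 4 were without overlap. All genes tested stand beside these lists with 70.9% lower and 41.5% below without overlap. Taken by replicate number, the list's median was -0.76 for number 1 and -0.36 for number 2, and -0.43 after median-ratio scaling. The 7 members of the neural and oligodendrocyte list were lower in 7 of 7, with a median of -0.25 and 4 without overlap, among them Zfp24 at 25.03 and 20.7 against 16.6 and 20.0 TPM. Its median was -0.56 for number 1 and -0.05 for number 2, and -0.07 after scaling. The 14 members of the RNA, ribosome, ubiquitin, mitosis and repair list had a median of -0.21, 12 lower and 2 higher, with 4 below and 1 above without overlap. Its median was -0.33 for number 1 and -0.04 for number 2, and -0.03 after scaling. The 5 promoter binding factors had a median of -0.34, all lower, 3 without overlap, at -0.50 for number 1, -0.0078 for number 2 and -0.17 after scaling. In these 3 lists the number 2 libraries were no lower than all genes, whose median there was -0.14. None of these members passed the adjusted threshold.

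The corepressors that KRAB proteins recruit were also lower in MB1 beside Oli-neu. Of 29 listed genes 27 were tested, 25 had a lower mean (background 70.9%), 19 were below without overlap (background 41.5%) and 9 were on the lower side at an unadjusted p under 0.05 (background 12.6%), with 0 past the limma adjusted threshold. Their median was -0.41 against -0.17 for all genes, and -0.23 against -0.01 after median-ratio scaling. Between the libraries numbered 1 it was -0.49 (all genes -0.19), and between those numbered 2 it was -0.17 (all genes -0.14). Trim28 was at 317 and 346 TPM alone and 244 and 214 beside Oli-neu, without overlap, at -0.53 (limma adjusted p 0.285). Setdb1 was at 15.5 and 13.2 against 9.46 and 11.1 TPM, and the heterochromatin protein gene Cbx3 at 293 and 325 against 233 and 186. The list also holds Dnmt1 and Uhrf1, which follow DNA replication, at 30.8 and 31.0 against 18.4 and 21.2 and at 35.1 and 30.1 against 16.3 and 26.7 TPM. In Oli-neu beside D341 the list's median was -0.22 against -0.16, and beside MB1 -0.12 against -0.06.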

How the data were processed

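Poly(A) RNA of 14 libraries was sequenced over 75 cycles with a directional kit, per the labels, and the 10 mouse libraries were used here. The deposited values are TPM per gene, estimated transcript abundances that sum to 1000000 in each library, in 1 table for each line. Salmon 0.14.1, the builds GRCm38 and GRCh38, DESeq2 1.22.2 and the quality tools MultiQC 1.7 and FastQC 0.11.8 are listed in the submitters' processing notes. The annotation release behind the tables is not given in the sources used here. No counts were given, so depth is unknown and no count test was run. Every sample column was mapped to its library by title, and 0 columns were left unmapped.

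Symbols, classes and GRCm38 positions came from GENCODE M21, which matched 35099 of 35288 identifiers, and 8 identifiers with such a symbol that are not protein-coding were left out by the rule. A gene entered the fit of a table if 2 or more of its libraries had 1 TPM or more. The fit was made in limma 3.58.1 (R 4.3.3) on log2(TPM + 1) with a mean-variance trend. Such fold changes understate those of low genes. The tests were two-sided, with Benjamini-Hochberg adjustment over all genes tested called at 0.05. One fit took all 6 Oli-neu libraries and another the 4 of MB1. Of the members 3, Zfp990, Zfp991 and Zfp993, were not tested in MB1. The fit was also run on simulated data with independent noise in each library. Same-numbered Oli-neu libraries deviated together, so that run does not measure the power of the fit here.

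Fingers and the KRAB and SCAN patterns were counted in translated coding sequences of GENCODE M21, in place of RefSeq proteins. A finger was 2 cysteines 2 to 4 residues apart, 12 residues, and 2 histidines 3 to 5 residues apart. Median-ratio scaling divides a library by the median of its genes' ratios to their means over the table.

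Named members were the 8 with the smallest p in each comparison, the 10 highest, the 8 at either end of the ratio of Oli-neu to MB1, those beside the level threshold and those of the role lists. The members, the lists, the rules and the alternatives were chosen with earlier results of these data known. Some further members were named with their values in view. The settings varied were the pseudocount (0.1 or 5 TPM), the filter (none or 5 TPM), median-ratio scaling, protein-coding genes alone, no trend, the replicate number as a block, a fit of the 4 libraries compared, a ratio of 1.5, a member level of 1 or 5 TPM, and each library left out.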

Additional observations from a re-analysis of the deposited data

Results flagged for a closer look

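For 9 members the co-culture of Oli-neu with MB1 went with opposite differences in the 2 lines, each without overlap between the libraries of a line. Of the 168 members tested in both lines, 8 (4.76%, all genes 2.77%) were higher in Oli-neu beside MB1 and lower in MB1 beside Oli-neu, and 1 (0.595%, all genes 1.31%) was the reverse. Zfp532 had a log2 fold change of 0.30 in Oli-neu and -1.34 in MB1, the widest of these differences. Zfp60 had 0.04 and -0.49, Zfp827 had 0.11 and -0.42, and Zfp64 had 0.19 and -0.30. Zfp426 had 0.19 and -0.29, Zfp287 had 0.10 and -0.28, Zfp523 had 0.29 and -0.23, and Zfp703 had 0.10 and -0.12. Zfp13, the reverse, had -0.26 and 0.39. The difference between the lines was not tested, since the tables were deposited separately, and no value passed the adjusted threshold in its own line.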

How the results depend on the processing

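No member passed the limma adjusted threshold of 0.05 under any alternative run. Of all genes, 0 passed in the fits reported. Beside MB1 against Oli-neu alone, 3 passed with a pseudocount of 0.1 TPM, 2 with median-ratio scaling, 2 with protein-coding genes alone, and 1 each with no filter and without a trend. Beside D341 against alone, 3 passed with no filter, 1 with protein-coding genes alone and 0 to 2 with a library left out. Beside D341 against beside MB1, 6 passed with no filter and 1 each with protein-coding genes alone and without a trend. In MB1, 5 passed with protein-coding genes alone and 0 to 68 with a library left out: 68 without MB1 alone replicate 1 and 1 without MB1 alone replicate 2.

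With median-ratio scaling the members' median was -0.024 beside D341 against alone, -0.033 between the partners and -0.13 in MB1. Beside MB1 in Oli-neu it lay between -0.082 (without Oli-neu with MB1 replicate 1) and 0.030 (without Oli-neu with MB1 replicate 2) with a library left out. At a ratio of 1.5 between lines, 17 members were higher in Oli-neu (9.94%, all genes 11.3%) and 32 in MB1 (18.7%, all genes 34.9%), and 6 were higher in MB1 at a ratio of 2 with protein-coding genes alone.

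With the replicate block 0 members passed in any comparison, and 12, 37, 28 and 15 had an unadjusted p under 0.05, in place of 8, 28, 20 and 29. Deviations of same-numbered libraries from their group means correlated across genes at 0.618, 0.593 and 0.614 in Oli-neu and -0.115 in MB1. The labels do not say what a number marks, so the libraries are taken to share only a number. The causes were not tested. With 2 libraries a group and unknown depth, low members are the least precise.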

Other observations

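Within Oli-neu, Zfp990 and Zfp969 were at least 2-fold higher in the library numbered 2 than in that numbered 1 in all 3 groups, 2 of 171 members (1.17%) beside 1.78% of all genes at 3 TPM or more. Zfp990 was at 0.318 and 13.6 TPM alone, 0.346 and 12.0 beside MB1 and 1.46 and 12.4 beside D341. Zfp969 was at 41.7 and 86.6, 17.4 and 90.2, and 13.6 and 106 TPM in the same order. Zfp131, at 28.8 and 90.9, 43.2 and 81.3, and 24.2 and 67.6 TPM, was at least 1.5-fold higher in number 2 in all 3 groups. Within Oli-neu the spread inside each group was wider than the differences between group means for these 3 members. All of Zfp969's windows are shared with other genes, among them Zfp968, at 1.49 to 4.35 TPM.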
